A study of Drosophila melanogaster with 3 samples.

Results

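Among the chromatin sites recovered with GFP-tagged CG1529 in Drosophila embryos, 656 were too weak for the authors' reproducible peak list and yet recurred in every replicate library. These repeatable weak peaks were chosen from 29972 distinct intervals of the pooled peak list by 2 conditions. None overlapped a peak of the list kept by the authors after filtering on the irreproducible discovery rate (IDR), called the optimal list here, by 1 bp or more. Each also overlapped, over at least 50% of both peaks, a peak among the 8000 strongest of each of the 3 libraries. Signal and rank therefore chose the members, and those values are given as description without a test. They were set beside 3905 optimal peaks and beside 3183 unrepeated weak peaks, which are the other pooled intervals among the 8000 strongest that did not touch an optimal peak. Unrepeated means without a match among the 8000 strongest of at least 1 library. Of these peaks 714 lacked only replicate 1, 677 only replicate 2 and 370 only replicate 3, and 162 were held by 0 libraries.

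The material was whole embryos of both sexes, aged 0 to 14 h, from a single transgenic Drosophila melanogaster line stably carrying CG1529 fused at its C terminus to GFP. There were 3 libraries, biological replicates 1, 2 and 3, with no other genotype, stage or treatment, and the labels do not say whether they came from separate embryo collections. Chromatin was sonicated to 200 to 800 bp. The labels give CG1529 as the precipitated target in 1 field and an input control in another, and the deposited listings show each library called against 1 shared control alignment, so the libraries were read here as ChIP libraries. Whole embryos mix many cell types, and a site bound in few cells cannot be told apart from one bound weakly in many.

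ChIP-seq recovers DNA fragments crosslinked to a protein, and a peak is a place where such fragments pile up above a control. The IDR asks how consistently peaks keep their rank between replicates, and a threshold on it divides a continuous ranking into a kept list and a remainder. The remainder mixes weak binding with background, in proportions that a ranking does not give. CG1529 encodes a zinc finger protein, a class in which arrays of fingers commonly read DNA sequence.

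The sequences at the summits show what these sites look like. The 8 below are the repeatable weak peaks of highest pooled signal whose windows overlap no annotated exon, less those of 1 chromosome arm that is not printed here, each given as 101 bases centred on the summit, plus strand, dm6. Capitals mark a searched motif (TATAAAA, in either orientation) or, where no searched motif occurred, the longest run of A and T with both bases. They lay at chr3L:10337663-10337763 in an intron of lncRNA:CR46006, chr3L:614901-615001 between genes near lncRNA:CR42719, chr3L:13189475-13189575 between genes near snky, chr2L:13778830-13778930 in an intron of CG9008, chr3R:13367186-13367286 upstream of a TSS (transcription start site) of Dic1, chr3R:22447889-22447989 upstream of CG34376, chrX:3455621-3455721 in an intron of lncRNA:CR44999 near CG16782, and chr3L:14301127-14301227 in an intron of fz. Their G+C content ran from 21.8% at Dic1, which encodes a mitochondrial dicarboxylate carrier, to 53.5% at lncRNA:CR42719.
CR46006: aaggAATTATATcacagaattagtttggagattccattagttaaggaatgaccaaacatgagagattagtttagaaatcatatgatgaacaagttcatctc
CR42719: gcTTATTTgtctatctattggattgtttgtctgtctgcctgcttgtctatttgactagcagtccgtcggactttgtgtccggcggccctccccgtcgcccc
snky: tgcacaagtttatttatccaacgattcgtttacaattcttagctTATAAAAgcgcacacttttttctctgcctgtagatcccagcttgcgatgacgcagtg
CG9008: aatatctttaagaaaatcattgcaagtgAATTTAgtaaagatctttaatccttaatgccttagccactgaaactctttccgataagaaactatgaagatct
Dic1: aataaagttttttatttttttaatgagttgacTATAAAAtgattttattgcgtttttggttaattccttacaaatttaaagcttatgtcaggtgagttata
CG34376: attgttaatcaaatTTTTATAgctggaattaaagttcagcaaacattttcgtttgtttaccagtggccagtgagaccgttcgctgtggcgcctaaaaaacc
CG16782: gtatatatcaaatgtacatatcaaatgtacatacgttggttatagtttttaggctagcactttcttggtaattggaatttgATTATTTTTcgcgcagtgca
fz: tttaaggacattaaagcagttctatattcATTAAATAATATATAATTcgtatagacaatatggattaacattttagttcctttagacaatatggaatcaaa

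A second set shows the word CACTGAGA, which occurred within 50 bp of 10 of the 656 summits and in none of the paired windows 300 bp to the right. The set was chosen after that result was seen. The 9 printed below each carry 15 bases to either side of the word and are oriented so that the word reads forward, with the word in capitals. The matches to the plus strand were chr3R:22624863-22624900 in loco, chr2L:17782017-17782054 between genes near CadN, chr2L:3149388-3149425 in Mad and chr3R:30293565-30293602 in heca. The matches to the minus strand were chr2L:17243639-17243676 in beat-IIIc, chr3L:16806272-16806309 in an intron of nudC, chr3R:28118350-28118387 near lncRNA:CR46077, chr3R:15644973-15645010 near CG43336 and chr3R:30293753-30293790, also in heca. The members behind the heca words overlap each other. The base after the word was G in 6 of these 9, and 30.7% of the 4330 occurrences in the genome were followed by G. Over all summit windows holding the word it was G in 6 of 10 members (60%), 17 of 41 unrepeated weak peaks (41.5%) and 21 of 49 optimal peaks (42.9%). The differences from members were not tested. In the full set of 10, 6 words lay within 20 bp of the summit and the farthest lay 33 bp away.
loco: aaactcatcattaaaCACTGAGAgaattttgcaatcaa
CadN: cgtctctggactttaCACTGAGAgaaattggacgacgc
beat-IIIc: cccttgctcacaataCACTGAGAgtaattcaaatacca
nudC: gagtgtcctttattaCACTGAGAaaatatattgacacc
CR46077: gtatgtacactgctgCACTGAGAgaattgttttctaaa
Mad: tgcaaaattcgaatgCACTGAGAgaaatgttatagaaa
heca, first: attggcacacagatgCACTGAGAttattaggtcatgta
CG43336: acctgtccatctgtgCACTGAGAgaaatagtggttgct
heca, second: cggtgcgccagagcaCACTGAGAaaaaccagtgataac

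Each library list and the pooled list held 30000 rows, called at a relaxed threshold, so the lower ranks include background. Peak lists do not give the depth in reads, which is unknown. At rank 8000 the −log10 q-value was 0.569 in replicate 1, 1.77 in replicate 2 and 1.62 in replicate 3, so the same rank reached weaker evidence in replicate 1. The optimal list was exactly the 3905 pooled intervals of highest signal, and 2721 of them (69.7%) also met the condition on the 3 libraries.

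The condition on the libraries confined the members to the first 8000 of the 30000 rows of each list. Their median rank was 4883 in replicate 1, 5531.5 in replicate 2 and 5418 in replicate 3. The lowest signal value, a height given by the authors' peak caller in units that are not stated, was 31.9 in replicate 1, with a median of 43.3 and a highest value of 76.4. In replicate 2 these values were 32.9, 40.8 and 89.9, and in replicate 3 they were 42.4, 53.9 and 96.7. The members' median −log10 q-value was 1.17 in replicate 1, 3.09 in replicate 2 and 2.36 in replicate 3. Only 1 member ranked within the first 3921, the row count of the optimal list, in all 3 libraries. The worst of a member's 3 ranks had a median of 6760 and was above 7000 in 278 members, and it came from replicate 1 in 175, replicate 2 in 253 and replicate 3 in 228.

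In the pooled list the repeatable weak peaks had signals of 38.4 to 157, with a median of 138. The share of intervals off the optimal list that were repeatable was 52.9% (245 of 463) at pooled ranks 3906 to 4405, 34.9% in the next 500 ranks and 20.2% in the 500 after those. It was 2.13% (10 of 469) at ranks 6906 to 7405. The pooled list was made from the same libraries whose ranks chose the members, so nothing is read from this fall. At the edge, the strongest repeatable weak peaks had signals of 156.932, 156.877 and 156.852, and the weakest optimal peaks, near Zw, rau and Zdhhc8, had 157.003, 156.992 and 156.963. At the other limit, the members near PVRAP, Rfx and robo1 had worst ranks of 8000, 7991 and 7989, and the intervals just outside, near CG32137, CG4116 and cno, had 8002, 8004 and 8005.

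**Figure D1:**
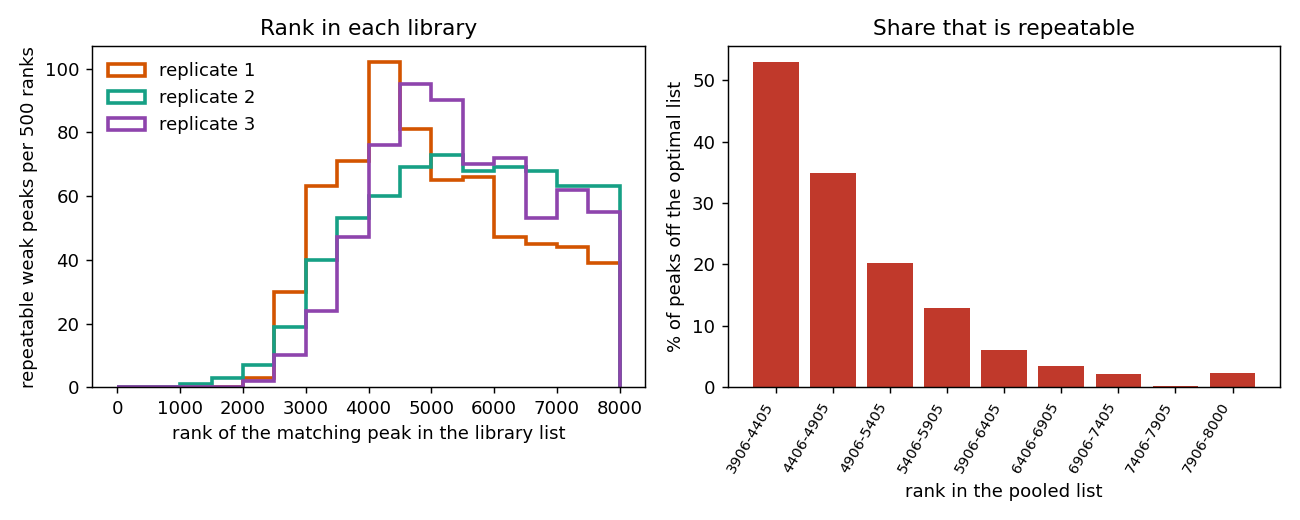
Left, number of repeatable weak peaks per 500 ranks (y) by the rank of the matching peak in each library (x), 1 line per replicate. Right, percentage of pooled intervals off the optimal list that are repeatable (y) by rank in the pooled list (x), falling in bars from 52.9% in the first bin to 2.13% at ranks 6906 to 7405.

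The 656 intervals formed 607 separate regions. There were 98 members that overlapped another member, and 76 that drew on the same 3 library peaks as another, so neighbouring members are not independent. Of the 43 members with a pooled rank beyond 8000, 38 overlapped a stronger member, and the other 5 lay at rdx, l(3)L1231, dally, disco-r and CG43402. All 656 were 436 bp wide, a width shared by 99.8% of the unrepeated weak peaks and 66.2% of the optimal peaks. Summits of the 3 library peaks behind a member spread over a median of 93 bp. They lay within 50 bp of each other in 168 members (25.6%) and were more than 150 bp apart in 154. The nearest optimal peak was a median of 4662.5 bp away.

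Of the 15 members with the smallest worst rank, 8 lay in introns, 3 at promoters and 4 between genes. A peak in an intron of Diap1, which encodes an inhibitor of apoptosis, ranked 3397, 3859 and 2461 in replicates 1, 2 and 3 (chr3L:16045233-16045668, pooled signal 155). It was the member within the first 3921 in all 3, and an optimal peak lay 337 bp away. A peak in an intron of E2f1, a cell cycle transcription factor gene, ranked 3113, 4066 and 3027 (chr3R:21656756-21657191, signal 149). The promoter of S6KL, which encodes a kinase related to S6 kinase, held one of ranks 3911, 3266 and 4216 (chrX:18789744-18790179, signal 151). An intron of Ptp61F, a tyrosine phosphatase gene, held one of ranks 3981, 3653 and 4311. An intron of Gs2, a glutamine synthetase gene, held one of ranks 3567, 4163 and 4443. All ranks of these 5 members fell between 2461 and 4443.

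In other members 1 library ranked the peak far below the other two. At the promoter of CG4098 the ranks were 7912, 4017 and 3740, and at that of RpL5, a protein of the large ribosomal subunit, they were 3923, 7834 and 3686. In an intron of bab1, a BTB-domain transcription factor gene, they were 3459, 7944 and 3269. In an intron of psq, another BTB-domain gene, they were 2613, 3889 and 7672. The library with the lowest placing thus differed from member to member. The strongest member by pooled signal, in a UTR exon of the sex determination gene dsx (chr3R:7933631-7934066), ranked 2851, 4825 and 4563. The next, within Ama, which encodes a secreted immunoglobulin-type protein, and 403 bp upstream of lncRNA:CR44930, ranked 4202, 5183 and 4836.

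Repeatable weak peaks lay in introns more often, and at promoters less often, than the weak peaks that missed at least 1 library, as long as replicate 1 was part of the rule. An intron held 323 of 656 summits (49.2%), a promoter, meaning within 500 bp of an annotated TSS, 164 (25%), and intergenic sequence 144 (22.0%). The promoter share was 25% (exact 95% interval 21.7 to 28.5) against 36.9% (35.3 to 38.7) in unrepeated weak peaks, a difference of -11.9 percentage points (95% interval -15.5 to -8.12). Fisher's exact test, two-sided and adjusted over the 6 position classes, gave p = 1.57e-08. The optimal peaks had 41.7% (1627 of 3905), and the members' difference from them was -16.7 points (Fisher's exact test, adjusted p = 8.49e-16), or 1.93 points without replicate 1. Introns held 49.2% of repeatable weak peaks, against 40.5% of unrepeated (Fisher's exact test, adjusted p = 0.00013) and 40.8% of optimal peaks (adjusted p = 0.000115). Intergenic shares were 22.0%, against 18.6% of unrepeated (Fisher's exact test, adjusted p = 0.0745) and 14.96% of optimal peaks (adjusted p = 4.33e-05). With replicate 1 left out of the rule the promoter difference from unrepeated peaks was 12.04 points and the intron difference -6.30 points. Against all other pooled intervals off the optimal list, a set that reaches down to background, the promoter difference was 1.23 points and the intron difference 3.73 points, and neither passed (Fisher's exact test, adjusted p = 0.549 and 0.124). The median distance to a TSS was 2200.5 bp in members, 1219 bp in unrepeated and 855 bp in optimal peaks. Intervals and tests treat peaks as independent and cover counting error only.

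**Figure D2:**
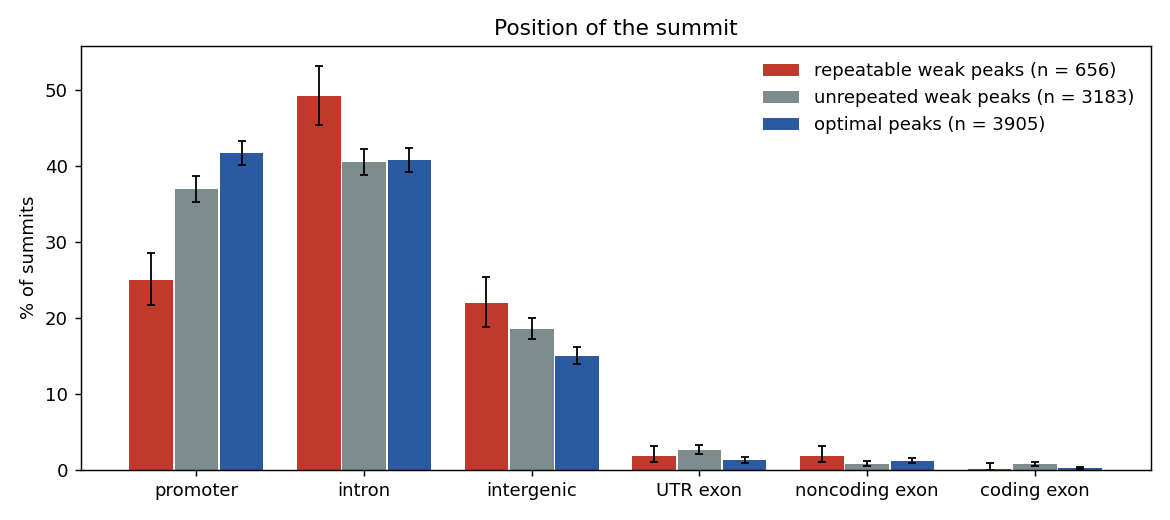
Percentage of summits (y) in each position class (x) for the repeatable weak peaks, the unrepeated weak peaks and the optimal peaks, with exact 95% intervals as bars. The repeatable weak peaks stand lowest in promoters (25%) and highest in introns (49.2%).

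The low promoter share rested on the requirement that replicate 1 hold the peak. When the condition was applied to replicates 2 and 3 alone, 1638 peaks met it, their promoter share was 43.6%, and the difference was 12.04 points from the peaks that then counted as unrepeated (Fisher's exact test, adjusted p = 2.98e-14) and 1.93 points from optimal peaks (adjusted p = 0.285). The split by library, added after the data were seen, regroups the same peaks and is not separate support. Among pooled intervals of rank up to 8000, the promoter share was 25.6% (157 of 613) where all 3 libraries held the peak. It was 55.6% (397 of 714) where replicates 2 and 3 held it and replicate 1 did not, 24.2% (164 of 677) where only replicate 2 lacked it and 27.6% (102 of 370) where only replicate 3 lacked it. The repeatable peaks differed from those lacking replicate 1 by -30.0 points (Fisher's exact test, adjusted p = 1.85e-28 over 5 comparisons). Their difference was 1.39 points (95% interval -3.32 to 6.12) from those lacking replicate 2 and -1.96 points (-7.75 to 3.66) from those lacking replicate 3, and neither passed Fisher's exact test (adjusted p = 0.606 for both). Among pooled ranks up to 5000 the last of these did pass. There the share was 25.5% (110 of 431) with all 3 libraries, against 56.0% (122 of 218) lacking replicate 1, 26.2% (56 of 214) lacking replicate 2 and 39.3% (33 of 84) lacking replicate 3. The differences were -30.4 points, -0.65 points and -13.8 points (Fisher's exact test, adjusted p = 1.31e-13, 0.849 and 0.0175 over these 3). Intervals held by 1 library had 36.0% (454 of 1260) and those held by 0 had 36.4% (59 of 162) at pooled ranks up to 8000.

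**Figure D3:**
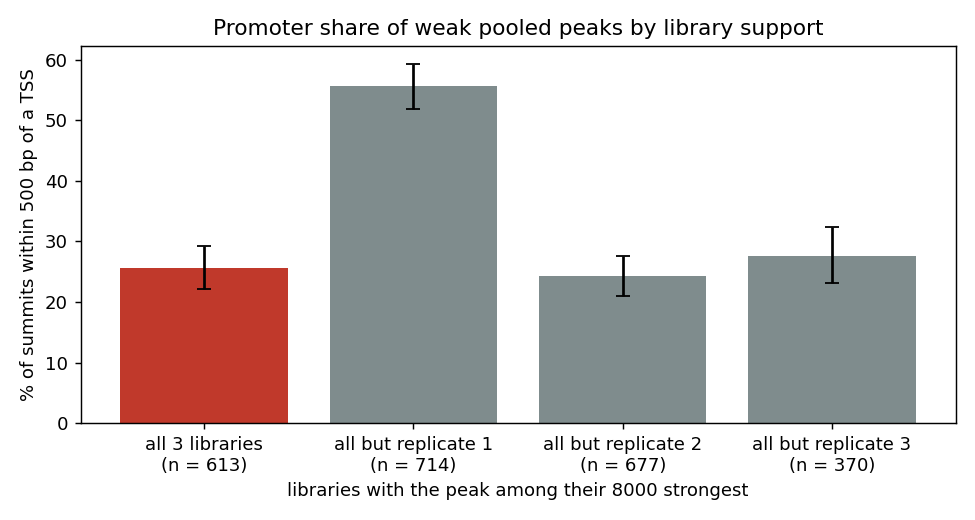
Percentage of summits within 500 bp of a TSS (y) for weak pooled peaks grouped by the libraries that hold them among their 8000 strongest (x), with exact 95% intervals as bars. The peaks that replicate 1 alone lacks stand at 55.6%, and the other groups drawn stand between 24.2% and 27.6%. Peaks held by 1 or 0 libraries are not drawn.

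The libraries' own lists differed in the same way. In replicate 1 the promoter share was 44.7% in the first 2000 ranks, 32.05% and 25.8% in the next bands and 20.6% at ranks 6001 to 8000. In replicate 2 it was 46.25% and 41.75% in the first and last of these bands, and in replicate 3 it was 45.95% and 37.6%. The library peaks matched to members were near promoters in 25.04%, 25.2% and 25.2% of cases in replicates 1, 2 and 3. The shares were 22.5%, 52.4% and 43.2% for the other peaks among the same 8000 that touched neither an optimal peak nor a member. The matched peaks stand for the same members in each library, so their near equality is built in. The members' share was lower in 2 of 3 libraries, with exact paired permutation p = 0.5, where 0.25 is the smallest that 3 pairs allow. In replicate 1 the members' share was thus the higher of the pair, and in replicates 2 and 3 it was the lower. The matched peaks also stood nearer the top of the lists. Their median ranks were 4842, 5559 and 5442 in replicates 1, 2 and 3, against 5910.5, 5750 and 5951 for the other peaks. The part of rank in these differences was not tested. What sets replicate 1 apart was not tested.

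**Figure D4:**
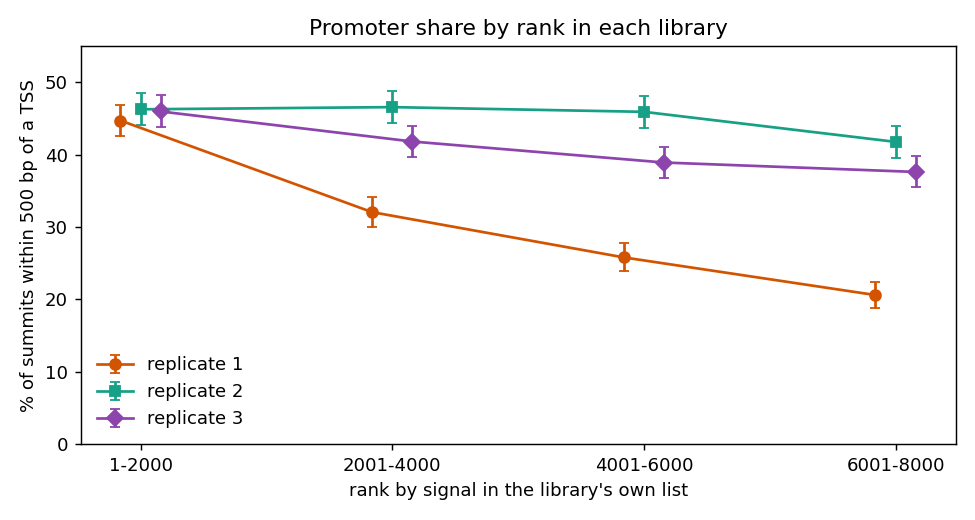
Percentage of summits within 500 bp of a TSS (y) by rank band in each library's own list (x), with exact 95% intervals, 1 line per replicate. Replicate 1 drops to 20.6% at ranks 6001 to 8000, and replicates 2 and 3 stay at 41.75% and 37.6%.

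Distance from the nearest TSS showed the same dependence. A summit more than 5000 bp from any TSS, a measure added after the data were seen, was found for 191 members (29.1%), against 21.4% of unrepeated weak peaks (Fisher's exact test, two-sided, p = 2.63e-05) and 17.4% of optimal peaks (p = 1.43e-11). Without replicate 1 in the rule the difference from unrepeated peaks was -4.97 points, and against all other pooled intervals off the optimal list it was 0.822 points (Fisher's exact test, p = 0.661). Among promoter summits, 107 of 164 members (65.2%) lay upstream of the TSS, against 61.6% of unrepeated (Fisher's exact test, two-sided, p = 0.391) and 77.2% of optimal promoter peaks (p = 0.00103). With a 250 bp promoter window the difference from optimal peaks was -7.53 points and did not pass (Fisher's exact test, p = 0.0761), and with the 6000 strongest in the rule it was 0.58 points. It was -22.7 points without replicate 1 and -7.39 points without replicate 2. An optimal peak lay within 1000 bp of 14.5% of members and 14.1% of unrepeated weak peaks (Fisher's exact test, p = 0.806, interval of the difference -2.38 to 3.53 points). Exons held few members. The 1 in a coding exon lay in Sgs3, a salivary glue gene, and 12 lay in exons of noncoding genes (1.83%, against 0.723% of unrepeated weak peaks, Fisher's exact test, adjusted p = 0.0233). Only 1 summit fell in an annotated transposable element. By chromosome no share differed from that of unrepeated peaks after adjustment. The largest difference was on X, with 19.5% of members and 15.8% of unrepeated weak peaks (Fisher's exact test, p = 0.0207, adjusted p = 0.124), a difference of 3.71 points. It was -0.0843 points without replicate 1, 4.55 points without replicate 2, which passed (Fisher's exact test, adjusted p = 0.00149), and -0.0888 points without replicate 3.

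Summits of repeatable weak peaks were A+T rich within G+C richer surroundings, as those of optimal peaks were. G+C within 50 bp of the summit was 35.4% ± 9.02 (SD, n = 656), against 43.9% ± 6.71 in the windows 300 bp to either side. The summit was lower than its flanks in 492 members and higher in 158 (exact sign test, two-sided, p = 8.31e-41). The mean difference was -8.46 points in members, -4.51 points in unrepeated weak peaks (38.1% against 42.6%) and -10.2 points in optimal peaks (33.8% against 44.0%). A lower summit was seen in 75% of members, against 62.1% of unrepeated (Fisher's exact test, two-sided, p = 1.79e-10) and 78.5% of optimal peaks (p = 0.0468). The dip was present in each main class of position, at -7.12 points in promoter members, -8.67 points in introns and -9.97 points between genes. In unrepeated promoter peaks it was -2.25 points.

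Without replicate 1 in the rule the dip was smaller but still passed, and its excess over unrepeated peaks reversed. With replicates 2 and 3 alone in the rule the mean difference between summit and flanks was -3.33 points (exact sign test, p = 4.92e-10), and the share of summits lower than their flanks differed from that of unrepeated peaks by -8.997 points (Fisher's exact test, p = 6.65e-09). Peaks that replicate 1 alone lacked had 40.7% at the summit and 41.5% in the flanks. Library peaks matched to members had 35.1%, 35.7% and 35.7% G+C in replicates 1, 2 and 3, against 37.9%, 40.5% and 39.2% in the other weak peaks, lower in 3 of 3 (exact paired permutation p = 0.25, the smallest 3 pairs allow). As stated above, these 2 sets also differed in rank.

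**Figure D5:**
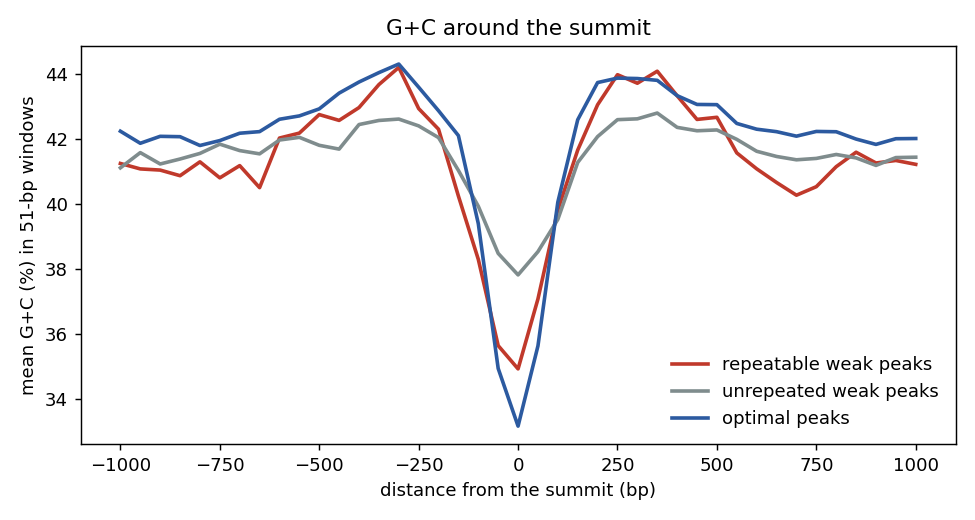
Mean G+C in 51-bp windows (y) by distance from the summit (x), 1 line each for the repeatable weak, the unrepeated weak and the optimal peaks. The repeatable weak peaks dip almost as far as the optimal peaks and farther than the unrepeated weak peaks, with shoulders of higher G+C near 300 bp to either side.

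Of 12 motifs searched on both strands in the 101 bases around each summit, 4 were more frequent there than in the window 300 bp to the right (exact sign test on peaks, two-sided, Benjamini-Hochberg over the 12), and 5 differed at an unadjusted p under 0.05. TATAAAA, the TATA box, was found at 8.54% of summits, against 3.20% of their flanks (exact sign test, adjusted p = 0.000779) and 4.72% of all windows of that length in the genome. TAATTA, the homeodomain core, was at 9.76%, against 4.88% (exact sign test, adjusted p = 0.00757) and 6.47% of genome windows. CACTGAGA, a word of the optimal summits, was at 1.52% (10 of 656), against 0 of 656 flanks (exact sign test, adjusted p = 0.00781) and 0.305% of genome windows. The 0 of 656 allow a share of up to 0.457% by an approximate 1-sided rule. With members that overlapped a stronger member left out, CACTGAGA was higher at summits than in flanks by 1.48 points (exact sign test, adjusted p = 0.0156). ATTTAAAA, an A and T word of the optimal summits, was at 4.73%, against 2.13% (exact sign test, adjusted p = 0.018) and 2.50% of genome windows. The letters of all but CACTGAGA among these 4 are A or T alone, and the summits themselves were A+T rich. The part of base composition in these shares was not tested. All 4 lost the call with replicates 2 and 3 alone in the rule, at exact sign test adjusted p of 0.302, 0.312, 0.0798 and 0.053 in that order. With the 6000 strongest in the rule (182 members) 0 motifs passed, and against the window to the left 1 did, TATAAAA.

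The other 8 motifs did not pass against the flanks. CAGCTG, an E-box, was at 2.59% of summits and 5.03% of flanks (exact sign test, adjusted p = 0.0788), and CACTGTGC at 1.83% and 0.61% (adjusted p = 0.115). The shares were 1.37% and 2.13% for GAGAGAG, the GAGA factor repeat, and 2.13% and 3.81% for CACACACA. CACAGTGG, like CACTGTGC a word of the optimal summits, was at 1.07% and 0.61%. CAGGTAG, read by the early activator Zelda, was at 3 summits and 4 flanks, GGTCACAC, the core read by M1BP, at 3 and 4, and TATCGATA, the DNA replication-related element, at 1 and 0. The 12 motifs do not contain one another, though CACTGAGA and CACTGTGC share their first bases. A match to letters is a description and not a binding site.

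No motif set members apart from the other classes after adjustment. None passed against unrepeated weak peaks (Fisher's exact test, two-sided, lowest adjusted p = 0.11, for CAGCTG at 2.59% of members and 4.84% of unrepeated peaks), with 3 at an unadjusted p under 0.05. With a replicate left out of the rule, 2 passed without replicate 1, 6 without replicate 2 and 0 without replicate 3. Against optimal peaks none passed, with 0 at an unadjusted p under 0.05. CACTGAGA stood at 1.52% of members, 1.29% of unrepeated and 1.25% of optimal peaks. It was at 0 of the 164 promoter members, which allows a share of up to 1.83%, and in 10 of the 492 others (Fisher's exact test, two-sided, p = 0.0739), and in unrepeated weak peaks it was at 5 of 1176 promoter and 36 of 2007 other summits (p = 0.000527). In optimal peaks it was at 13 of 1627 promoter and 36 of 2278 other summits (Fisher's exact test, p = 0.0401). The words taken from optimal summits, CACTGAGA, ATTTAAAA, CACAGTGG and CACTGTGC, were known from these libraries. Their presence at weaker peaks of the same libraries is therefore not independent evidence.

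A member summit lay within 500 bp of a TSS of 202 genes, 1.11% of the 18164 annotated genes, and inside the body of 362 genes, 1.99% of them. The most were in Ten-a, a gene of 291517 bp that encodes a teneurin of synapses, with 5 members of pooled signal 119.5 to 154. The polarity gene scrib held 4 and shn, a zinc finger gene acting in BMP signalling, held 4, of which 3 in each did not overlap a stronger one.

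Genes of segment polarity and of Wnt and Hedgehog signalling, which pattern the embryonic segments, held members in 8 of 17 bodies. Of the Wnt ligand genes, wg had an intronic member (chr2L:7313454-7313889, signal 147, ranks 4973, 6119 and 3837), Wnt6 another (chr2L:7339519-7339954, signal 146, ranks 7520, 4313 and 4578) and Wnt4 had 3 (signals 141, 118 and 115), all on the same stretch of chromosome 2L. The receptor gene fz had 2, in an intron (signal 156, ranks 6524, 4106 and 6222) and 485 bp from its TSS (signal 151, ranks 6436, 2769 and 4142). The receptor gene fz2 had 2, with signals 155 and 136, and fz3 had 2, both with signal 144. The Hedgehog ligand gene hh had 1 in an intron (signal 132, ranks 6538, 4525 and 6150), and inv, a homeobox gene, had 1 (signal 137). These 13 members gave 3.22 per 100 kb of gene body, against 0.481 over all genes. The genes of the list are long, with a median of 13738 bp against 1656 bp for all genes.

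Other signalling and patterning lists held fewer, beside 1.99% of bodies and 0.481 members per 100 kb over all genes. In the BMP, EGF receptor and FGF list 4 of 18 bodies held a member. These were tkv, a BMP receptor, with 3, Mad, the BMP signal transducer, sog, a BMP antagonist (signal 150.5), and pnt, an ETS factor of the EGF receptor pathway, whose member lay 234 bp upstream of a TSS (signal 155, ranks 3925, 6190 and 4045). Of the 3 in tkv, 2 did not overlap a stronger one. The list gave 1.71 members per 100 kb, with all 3 counted. Of the 8 Hox genes 3 held members, lab with 2, Antp and Abd-B, all with summits in introns among those named (signals 119, 142 and 144), at 1.19 per 100 kb. In the Notch list, mam, the coactivator, held 2 (1 of 9 genes, 0.734 per 100 kb), in the hormone list Eip75B, a nuclear receptor, held 3 and usp, the ecdysone receptor's partner, 1 (2 of 17 genes, 0.581 per 100 kb), and in the neural list sim and robo1 held 1 each (2 of 24 genes, 0.486 per 100 kb). The hormone and neural densities are near that of all genes.

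At the shares of all genes, 1.11% near a TSS and 1.99% in the body, lists of 14 to 20 genes would hold few or none. None was marked in the lists of muscle and mesoderm (20 genes), Polycomb and trithorax (20), insulator proteins (16) and gap and pair-rule genes (14). These shares take no account of gene length. The muscle and mesoderm list spans 444567 bp, against 404279 bp for the segment polarity list, and all genes held 0.481 members per 100 kb. The other lists without a member span 56603 to 191710 bp. In the epithelial and tracheal list (15 genes) pnr, a GATA factor gene, had a member 12 bp upstream of a TSS (signal 124, ranks 6162, 3506 and 5084). Among genes of the cytoplasmic ribosome, RpS6 and RpL5 (2 of 88, 2.27%, against 1.11% of all genes) had a member near a TSS, and among those of the mitochondrial ribosome mRpL4 and mRpS21 (2 of 73, 2.74%). These counts were not tested. The TSS nearest to the mRpS21 member was that of Droj2, 109 bp away.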

How the data were processed

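The lists deposited by the authors use dm6 and, per the file listings, were called at a relaxed threshold for each library and for the pooled libraries; the IDR list was derived from them. The peak signal and the −log10 q-value are the authors' values as deposited, and the summit offset is likewise theirs. The sources used here do not give the caller, the aligner, the signal normalization or the IDR threshold. Computed here: 1 row per interval, overlap, position relative to Ensembl release 115 genes (promoter, coding, UTR and noncoding exon, intron, intergenic, in that order), G+C and motifs from the dm6 reference. Tests ran in Python 3.11.15 with scipy 1.17.1 and were tested on simulated data. Intervals of shares are exact (Clopper-Pearson, 95%), and those of differences are Newcombe's. Members, motifs and gene lists were chosen with earlier results of these data known. Named peaks were the 20 of highest pooled signal, the 15 with the smallest worst rank and up to 3 per gene list. The library split, the 5000 bp measure and the following base of CACTGAGA were added after the data were seen. One summit's sequence was not used here.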

Additional observations from a re-analysis of the deposited data

How the results depend on the processing

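Of 201 alternative values, 139 kept direction and call or stayed within the set range, 19 lost their call, 6 gained one, 22 moved and 15 reversed. No paired analysis was possible because the 3 libraries form 1 group and no groups share replicate numbers; the comparison within each library is in the results. Alternatives on the rank band and on 1 member per region, and those for the intron, 5000 bp, X and gene counts, were chosen after seeing the data. The number of members was 182 with the 6000 highest, 1197 with the 10000 highest and 404 with 75% overlap, and 1145, 1471 and 1638 with 1 replicate left out of the rule. Genes near a member at a TSS were 58, 388 and 119, and 352, 432 and 800. The promoter share was 17.1% within 250 bp, 34.1% within 1000 bp and 24.5% to 43.6% with a replicate left out. Its difference from unrepeated peaks was -15.8 to 12.04 points with a replicate left out, reversed without replicate 1. It was 1.23 points (Fisher's exact test, adjusted p = 0.549) against all other pooled intervals off the optimal list, so no deficit was seen against the whole relaxed list. Against optimal peaks it was -17.1 to 1.93 points, reversed without replicate 1. The intron difference was 6.83 points with the 6000 highest and 3.73 against all others, neither passing, and -6.30 to 8.73 with a replicate left out. The share beyond 5000 bp differed by 3.42 and 0.822 points there, neither passing, and by -4.97 to 6.53. The G+C share differed by -8.997 to 13.3 points with a replicate left out. The coding exon difference was -0.594 points without replicate 2, which passed (Fisher's exact test, adjusted p = 0.0247), up to 0.064 with another left out, -2.97 against all others, which passed, and 0.0587 in the top rank band. The share near an optimal peak differed by -1.03 points with the 10000 highest, -0.225 to 2.29 with a replicate left out, 3.60 against all others, which passed, and -1.44 in the top rank band. The upstream difference was 0.58 points with the 6000 highest and -7.53 within 250 bp, without passing. The X difference was 6.17 points with 75% overlap, which passed, 4.55 without replicate 2, which also passed, and -0.0888 and -0.0843 with another left out. Motifs passing against flanks were 0 with the 6000 highest, 2 with 75% overlap, 1 with the left flank, and 1 to 5 with a replicate left out. Against unrepeated peaks they were 3 with all others and 0 to 6 with a replicate left out. Within pooled ranks up to 5000, chosen after seeing the data, the promoter share of members differed by -0.646 points from peaks lacking replicate 2 and by -13.8 points, which passed, from those lacking replicate 3. In that band, with replicate 1 in the rule, members differed from unrepeated peaks by -17.6 points at promoters (Fisher's exact test, adjusted p = 3.92e-08). The intron difference was 12.8 points and that beyond 5000 bp 10.7 points, and both passed. The causes were not tested. Peak lists hold no read depth, so a weak signal and shallow sequencing cannot be told apart.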
